A study of Homo sapiens with 9 samples.

Results

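Aminoacyl-tRNA synthetases attach each amino acid to its matching tRNA and so supply the ribosome with its substrates. Human cells hold separate sets of these enzymes for the cytosol and for the mitochondrial matrix, and nuclear genes encode both. The cytosolic enzymes carry the suffix 1 (FARSA and FARSB for the subunits of the phenylalanine enzyme) and the mitochondrial ones the suffix 2. GARS1 and KARS1 serve both compartments. Several cytosolic synthetases are held together in the multisynthetase complex by the scaffold proteins AIMP1, AIMP2 and EEF1E1.

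The mRNA levels of 38 such genes were examined in HNT34 cells, a human line of acute myeloid leukemia (AML) that expresses EVI1 strongly, after knockdown of EVI1 (gene symbol MECOM). They comprised 19 cytosolic synthetases, 16 mitochondrial synthetases and the 3 scaffold genes, out of 16612 genes in the count table. All 38 passed the filter on low counts, which left 16312 genes to test, and their counts in single libraries ran from 130 (WARS2) to 19877 (IARS1). The genes were selected by name and function, with none dropped for its value. The list was nevertheless chosen with the changes against the control known, so calls and values against the control are given as a description of these genes, without their p-values. Adjusted p-values are given for the comparison of the shRNAs with each other.

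All cells carried a lentiviral pZIP-hEF1a-RFP-Puro vector, were selected with puromycin and were collected 3 days after selection. The vector encoded a non-targeting shRNA (NT), the EVI1-directed sh#16 or the EVI1-directed sh#87, with 3 libraries per group. One label field gives the number 18 for the sh#87 libraries, whereas their titles give 87. The labels do not say whether replicates were separate transductions, so the spread between libraries may be technical.

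Library totals ran from 17096170 to 43502389 counts. MECOM stood at 571, 504 and 440.5 CPM (read counts scaled by library size with TMM) in NT, at 143 to 145 CPM with sh#16 and at 106 to 109 CPM with sh#87 (exact permutation test on log2 CPM, 6 against 3 libraries, 2-sided p = 0.0238, the smallest this design allows). Of 6 markers of the myeloid line, 5 were tested (CD34, KIT, CD33, PTPRC, SPI1), and their summed level was 1703 to 1838 CPM in NT, 348 to 351 CPM with sh#16 and 214 to 216 CPM with sh#87. Of 9 markers of other cells, 4 were tested, none at 0 in a whole group, with sums of 94.2 to 105 CPM, 106 to 112 CPM and 87.0 to 94.5 CPM. Within these, COL1A1 had 1 to 4 counts per NT library and 481 to 1200 per knockdown library. The part of these shifts in the results below was not tested, and in bulk RNA fewer cells of a type and less RNA per cell cannot be told apart. NT libraries varied most, with a biological coefficient of variation of 24.9% against 3.75% for sh#16 and 6.97% for sh#87. Mitochondrially encoded transcripts took 15.9%, 11.5% and 4.69% of counts in NT replicates 1, 2 and 3, 2.69% to 2.88% with sh#16 and 4.62% to 5.97% with sh#87.

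After knockdown the cytosolic synthetase mRNAs were lower as a sum and the mitochondrial ones were not. GARS1 and KARS1, which serve both compartments, were counted as cytosolic here, so the mitochondrial sum holds only the suffix 2 genes. GARS1 had means of 595 CPM in NT, 150 CPM with sh#16 and 143 CPM with sh#87. Those of KARS1 were 124, 107 and 73.2 CPM. The summed level of the cytosolic synthetases was 6113, 5876 and 5605 CPM in the NT libraries. It was 2252 to 2267 CPM with sh#16 and 2020 to 2046 CPM with sh#87, that is 38.5% and 34.7% of the NT mean. The mitochondrial synthetases together gave 385, 406 and 456 CPM in NT, 440 to 445 CPM with sh#16 and 432 to 443 CPM with sh#87. The knockdown libraries therefore lay far below every NT library in the cytosolic sum and within the NT range in the mitochondrial sum. Because the ratio of both sums within a library needs no scaling between libraries, it was computed from the counts directly. It was 15.9, 14.5 and 12.3 in NT, 5.14, 5.07 and 5.10 with sh#16, and 4.65, 4.56 and 4.73 with sh#87.

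By edgeR's quasi-likelihood test with Benjamini-Hochberg adjustment over all genes, the threshold for a call was an adjusted p of 0.01. With sh#16, 13 of 19 cytosolic synthetases were called lower than NT, where 30.2% of all genes were called lower, and 1 was called higher, where 29.8% of all genes were. With sh#87 the counts were 14 lower and 1 higher, beside 33.6% and 34.3% of all genes. Of 16 mitochondrial synthetases, 3 were called lower and 4 higher with sh#16, and 4 lower and 6 higher with sh#87. The 3 scaffold genes were called lower with each shRNA. Nothing is read from these counts about the genes as a set, since the list was chosen on this contrast.

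The median log2 fold change of the cytosolic synthetases was -1.09 with sh#16 and -1.31 with sh#87. That of the mitochondrial synthetases was 0.12 and 0.18, beside 0.04 and 0.04 for all genes tested. Against NT replicate 3 alone, the NT library with the lowest share of mitochondrially encoded counts, the cytosolic medians were -1.31 and -1.34, and the mitochondrial medians were -0.06 and 0.03. The sign of the mitochondrial median with sh#16 thus depended on which NT libraries were used.

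At a log2 fold change of at least 1 in size, 11 cytosolic synthetases were called lower with each shRNA, where 15.5% (sh#16) and 19.9% (sh#87) of all genes were, and 0 were called higher, where 18.5% and 23.9% of all genes were. Of the mitochondrial ones, 2 were lower and 1 higher by this measure with each shRNA. At a size of at least 2, 3 genes of the 38 were called with sh#16 and 5 with sh#87, beside 12.8% and 18.9% of all genes. With an adjusted p threshold of 0.05 and none on the fold, 27 and 30 of the 38 were called, beside 72.1% and 77.7% of all genes. The 6 knockdown libraries all lay below the 3 NT libraries for 14 cytosolic, 4 mitochondrial and 3 scaffold genes (32.1% of all genes), and all above them for 1 cytosolic and 5 mitochondrial genes (33.9% of all genes).

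**Figure D1:**
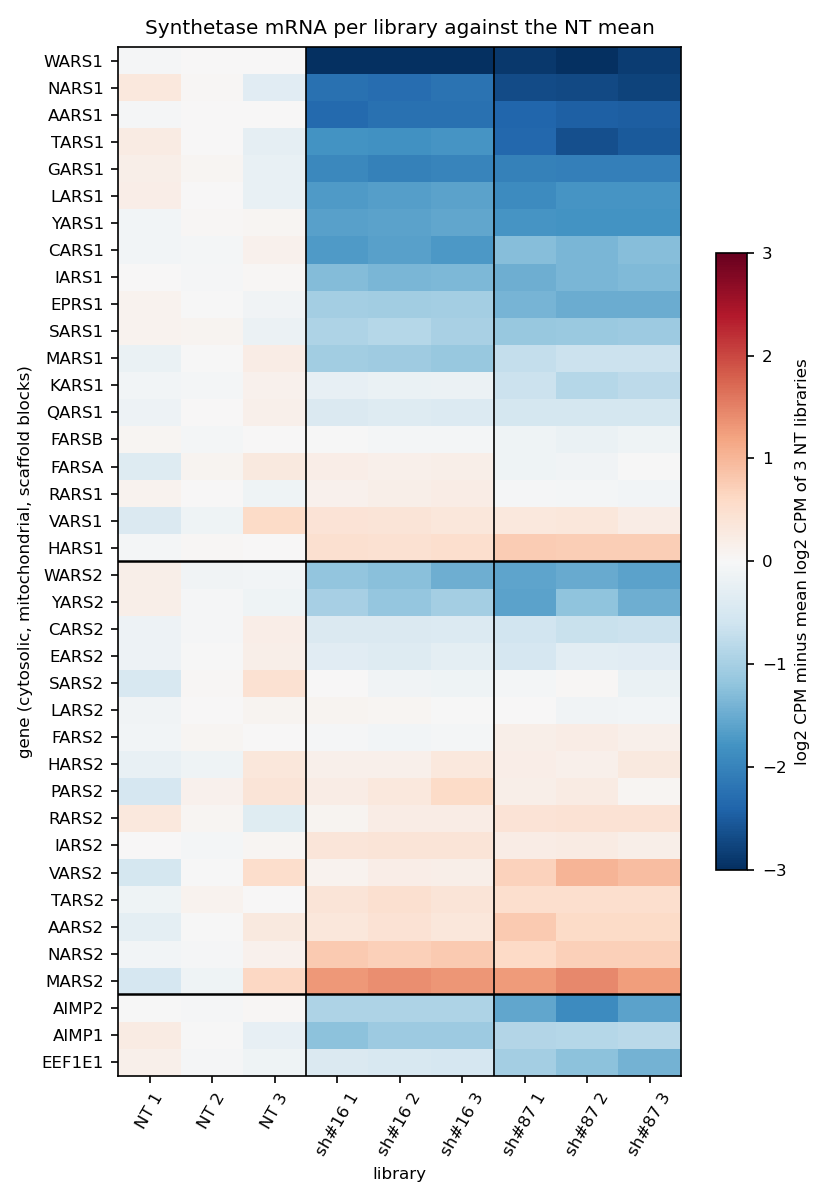
Colour gives the log2 CPM of each gene in each of the 9 libraries minus the mean log2 CPM of its 3 NT libraries, with genes in rows (cytosolic, mitochondrial and scaffold blocks, ordered by mean change) and libraries in columns. Most of the cytosolic block is blue in all 6 knockdown libraries, while the mitochondrial block holds both colours and visible differences between the NT libraries.

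Among cytosolic synthetases the tryptophan enzyme WARS1, which is also known as an interferon-induced gene, stood furthest below NT. Its level was 627, 641 and 647 CPM in NT, 79.1, 80.2 and 79.3 CPM with sh#16, and 86.2, 79.8 and 88.6 CPM with sh#87. NT libraries were thus nearly equal, and the groups with EVI1 shRNAs were 8.03-fold and 7.52-fold lower. Of 4 listed interferon-response genes, 2 were tested. IRF1 was not called with either shRNA, while IFIT3 was called lower (log2 fold change -1.60 and -2.67).

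NARS1, the asparagine enzyme, gave 612, 502 and 385 CPM in NT. It gave 104, 101 and 106 CPM with sh#16 and 76.2, 74.6 and 71.7 CPM with sh#87, so that the knockdown libraries lay well below an NT group that itself spanned 1.59-fold. AARS1, which charges alanine, was at 465, 481 and 478 CPM in NT. With sh#16 it was at 94.6, 101 and 99.8 CPM and with sh#87 at 91.1, 86.7 and 85.9 CPM, or 20.7% and 18.5% of the NT mean.

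TARS1, the threonine enzyme, had 488, 417 and 344 CPM in NT, 118, 117 and 120.1 CPM with sh#16, and 80.7, 66.2 and 72.1 CPM with sh#87. All 3 groups were separate, with sh#87 lowest. GARS1, the glycine enzyme of both cytosol and mitochondria, had 664, 616 and 504 CPM in NT, 156, 146 and 149 CPM with sh#16, and 145, 142 and 143 CPM with sh#87. The means after knockdown were 25.2% and 24.1% of the NT mean, and NT did not overlap with either group.

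The other called cytosolic synthetases covered a range of sizes. LARS1 (leucine) had log2 fold changes of -1.66 ± 0.10 (SE) with sh#16 and -1.82 ± 0.10 with sh#87, and YARS1 (tyrosine) of -1.59 and -1.79. CARS1 (cysteine) was at -1.69 and -1.31, IARS1 (isoleucine) at -1.34 and -1.39, and EPRS1, which joins the glutamate and proline enzymes in a single protein, at -1.03 and -1.46. SARS1 (serine) was at -0.92 and -1.12, MARS1 (methionine) at -1.09 and -0.67, and QARS1 (glutamine) at -0.41 and -0.53. These genes were called lower with each shRNA. KARS1, the lysine enzyme of both compartments, was called lower with sh#87 at -0.76 and was at -0.21 with sh#16, which was not called.

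The histidine enzyme HARS1 was the exception in direction, at 62.6 ± 2.1 CPM in NT (SD, n = 3), 87.2 ± 1.7 CPM with sh#16 and 105 ± 1.6 CPM with sh#87. Its log2 fold changes were 0.48 ± 0.05 and 0.75 ± 0.05, and the 3 groups did not overlap. HARS1 and HARS2 are neighbours on chromosome 5 (GRCh38.p14, 140673905 to 140691370 and 140691455 to 140699305) with 84 bases between them. HARS2, the mitochondrial histidine enzyme, was at 24.1 ± 5.3, 27.6 ± 1.9 and 27.5 ± 1.6 CPM and was not called. FARSA, FARSB, RARS1 (arginine) and VARS1 (valine) were not called with either shRNA. FARSA, with the smallest mean change, stood at 65.8, 90.9 and 105 CPM in NT, 98.5, 95.9 and 97.0 CPM with sh#16, and 78.5, 79.8 and 85.5 CPM with sh#87, all within the NT range. VARS1 ranged from 54.8 to 109.6 CPM within NT and from 86.3 to 98.0 CPM in the knockdown libraries.

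**Figure D2:**
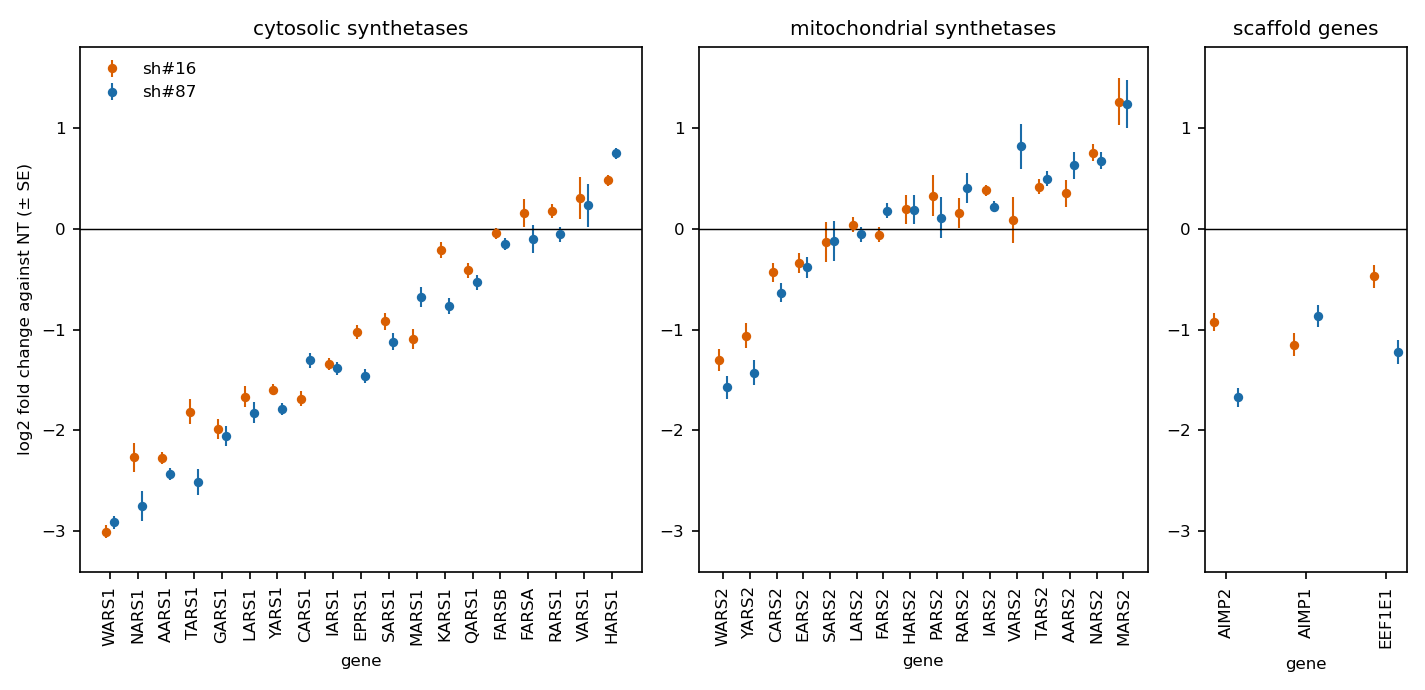
Points are log2 fold changes against NT for sh#16 (orange) and sh#87 (blue) with 1 SE from the edgeR fit, by gene on the horizontal axis, ordered by the mean of both shRNAs within each panel. The cytosolic panel runs from -3.0 (WARS1) to 0.75 (HARS1), the mitochondrial panel from -1.57 (WARS2) to 1.26 (MARS2), and the scaffold panel lies wholly below 0.

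Compared per kilobase of transcript (CPM divided by the length of the canonical transcript), the levels of the cytosolic synthetases lay closer together after knockdown. They ran from 14.9 (FARSB) to 244 (GARS1) CPM per kb in NT, a 16.4-fold range. With sh#16 they ran from 10.4 (CARS1) to 61.6 (GARS1), 5.92-fold, and with sh#87 from 13.4 (FARSB) to 58.9 (GARS1), 4.40-fold. In NT the order began with GARS1 (244 ± 34 CPM per kb, SD), WARS1 (242 ± 4.0), NARS1 (181 ± 41) and TARS1 (156 ± 27), and GARS1 and WARS1 did not differ beyond their spread, nor did NARS1 and TARS1. With sh#16 the order was GARS1 (61.6 ± 2.1), QARS1 (61.2 ± 0.98), IARS1 (57.1 ± 1.4) and KARS1 (53.9 ± 1.3), and GARS1 and QARS1 could not be told apart. Nor could KARS1 and FARSA (53.6 ± 0.72), which came next. With sh#87 the order was GARS1 (58.9 ± 0.57), QARS1 (56.4 ± 0.32), IARS1 (55.4 ± 2.6) and HARS1 (53.9 ± 0.81), and IARS1 could not be told from QARS1 or HARS1. WARS1, at place 2 of the 38 genes in NT, was at place 15 with sh#16 and 11 with sh#87. HARS1 went from place 17 to 7 and 4.

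ATF4, the transcription factor of the amino acid response, binds with C/EBP proteins to the element TGATGNAA, which is known from amino acid synthesis and transport genes. It was searched on both strands of RefSeq promoter windows (GRCh38.p14, 250 bases before to 50 after a start site, with some genes having more than 1 start site). Of 16 cytosolic synthetases with a window, 7 held it, beside 1 of 14 mitochondrial ones, 0 of 3 scaffold genes, and 4.46% of 27305 genes with a window. The gene list was chosen with its changes known, so a link between matches and changes was not tested. The cytosolic matches are listed in order of mean change, largest first. WARS1, the cytosolic gene furthest below NT, had 2 windows and no match. The matches are given on the strand of each gene, with the element or its reverse complement in capitals, to show how alike they are and how near most lie to a start site. A match describes letters and is no measure of binding.
NARS1: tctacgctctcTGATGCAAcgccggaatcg
AARS1: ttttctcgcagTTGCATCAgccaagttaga
TARS1: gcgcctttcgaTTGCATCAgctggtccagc
GARS1: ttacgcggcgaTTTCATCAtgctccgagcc
CARS1: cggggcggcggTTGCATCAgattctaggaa
IARS1: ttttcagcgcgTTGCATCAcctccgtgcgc
MARS1: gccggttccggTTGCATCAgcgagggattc
YARS2: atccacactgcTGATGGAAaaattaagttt

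The same 8 bases, TGATGCAA or its reverse complement TTGCATCA, stood in 6 of the 7 cytosolic genes. GARS1 had another base in the free position. The element began 14 bases after the first transcribed base in NARS1 and 2 bases after it in TARS1, and 2, 4, 13 and 33 bases before the start site in CARS1, MARS1, IARS1 and GARS1. GARS1, TARS1 and CARS1 have 2 annotated start sites each, and these distances are from the downstream one in GARS1 and TARS1 and from the upstream one in CARS1. From the first base of the gene, the element began 110.0 bases downstream in GARS1 and 271 bases downstream in TARS1. In AARS1 it lay 187 bases before the start and in YARS2, the mitochondrial tyrosine enzyme, 197 bases before it. The shown stretches are chr18:57621804-57621833 (NARS1), chr16:70289675-70289704 (AARS1), chr5:33440956-33440985 (TARS1), chr7:30594834-30594863 (GARS1), chr11:3057407-3057436 (CARS1), chr9:92293692-92293721 (IARS1), chr12:57488053-57488082 (MARS1) and chr12:32756076-32756105 (YARS2).

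ATF4 itself stood at 755, 761 and 645 CPM in NT, 128 to 139 CPM with sh#16 and 117 to 127 CPM with sh#87. Of 10 listed genes (ATF4 and genes it is known to induce), 9 were tested and 7 were called lower with each shRNA, beside the 30.2% and 33.6% of all genes given above. ASNS, which makes asparagine, was at -3.0 and -3.31 on the log2 scale, and SLC7A11, the cystine transporter, at -5.85 and -5.30. SESN2 and SLC3A2 were not called. The part of ATF4 in the synthetase levels was not tested. DDIT3, which overlaps the MARS1 gene at its end on chromosome 12, was at -3.52 and -2.24, and reads of overlapping genes may be shared. In all, 9 of the 38 genes overlap another gene of the table and are uncertain to that extent, since how strand was used in counting is not given for this table.

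The E-box CACGTG, which MYC and other factors bind, was searched as well. It was found in IARS1 among the cytosolic genes (1 of 16), in CARS2, EARS2 and MARS2 (3 of 14 mitochondrial genes), in AIMP2 (1 of 3 scaffolds) and in 8.77% of all 27305 genes. MYC had 299, 366 and 444 CPM in NT, 256 to 267 CPM with sh#16 and 93.1 to 111 CPM with sh#87.

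Among mitochondrial synthetases the tryptophan enzyme WARS2 was furthest from NT. It gave 22.7, 18.7 and 19.0 CPM in NT, 8.87, 8.34 and 7.23 CPM with sh#16, and 6.65, 7.02 and 6.61 CPM with sh#87. The groups did not overlap, and both tryptophan enzymes were thus lower after knockdown. YARS2 gave 29.4, 25.4 and 23.6 CPM in NT, 13.1, 11.7 and 12.9 CPM with sh#16, and 8.52, 11.2 and 9.46 CPM with sh#87, or 47.9% and 37.2% of the NT mean.

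MARS2, the mitochondrial methionine enzyme, moved the other way. Its level was 6.06, 7.85 and 13.2 CPM in NT, 21.3, 22.6 and 21.4 CPM with sh#16, and 20.7, 23.3 and 20.3 CPM with sh#87. The knockdown libraries lay above each NT library, although NT itself spanned 2.18-fold and was highest where mitochondrially encoded counts were lowest. NARS2, for asparagine, was at 15.1, 15.6 and 17.5 CPM in NT, 27.4, 26.4 and 27.6 CPM with sh#16, and 24.2, 26.4 and 26.5 CPM with sh#87. It stood at 169% and 159.7% of the NT mean.

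Further mitochondrial genes called with both shRNAs were TARS2 (threonine, log2 fold change 0.42 and 0.50), IARS2 (isoleucine, 0.38 and 0.22) and CARS2 (cysteine, -0.43 and -0.63). With sh#87 alone, AARS2 (alanine) was called at 0.63, VARS2 (valine) at 0.81 and EARS2 (glutamate) at -0.38, whereas with sh#16 their values were 0.35, 0.09 and -0.34. None of these genes was called between the shRNAs, where the log2 differences were 0.28 (AARS2), 0.73 (VARS2) and -0.04 (EARS2). FARS2, HARS2, LARS2, PARS2, RARS2 and SARS2 were not called with either shRNA, with values from -0.13 (SARS2) to 0.40 (RARS2). The calls of VARS2, IARS2 and EARS2 with sh#87 were lost without NT replicate 2 or without any 1 of the 6 knockdown libraries and in a fit of NT and sh#87 alone (that of IARS2 also with a replicate block, that of EARS2 also under upper-quartile normalization), that of AARS2 without NT replicate 2 or sh#87 replicate 1, and that of CARS2 with sh#16 without any 1 of the sh#16 libraries and in a fit of NT and sh#16 alone. LARS2, the leucine enzyme with the smallest mean change, was at 42.2, 45.1 and 48.0 CPM in NT, 47.6, 46.8 and 44.8 CPM with sh#16, and 45.7, 41.6 and 42.8 CPM with sh#87, with all groups overlapping. NT libraries spanned over 1.5-fold in 5 of the 16 mitochondrial genes (MARS2, PARS2, RARS2, SARS2, VARS2) and in 3 of the 19 cytosolic ones (FARSA, NARS1, VARS1).

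**Figure D3:**
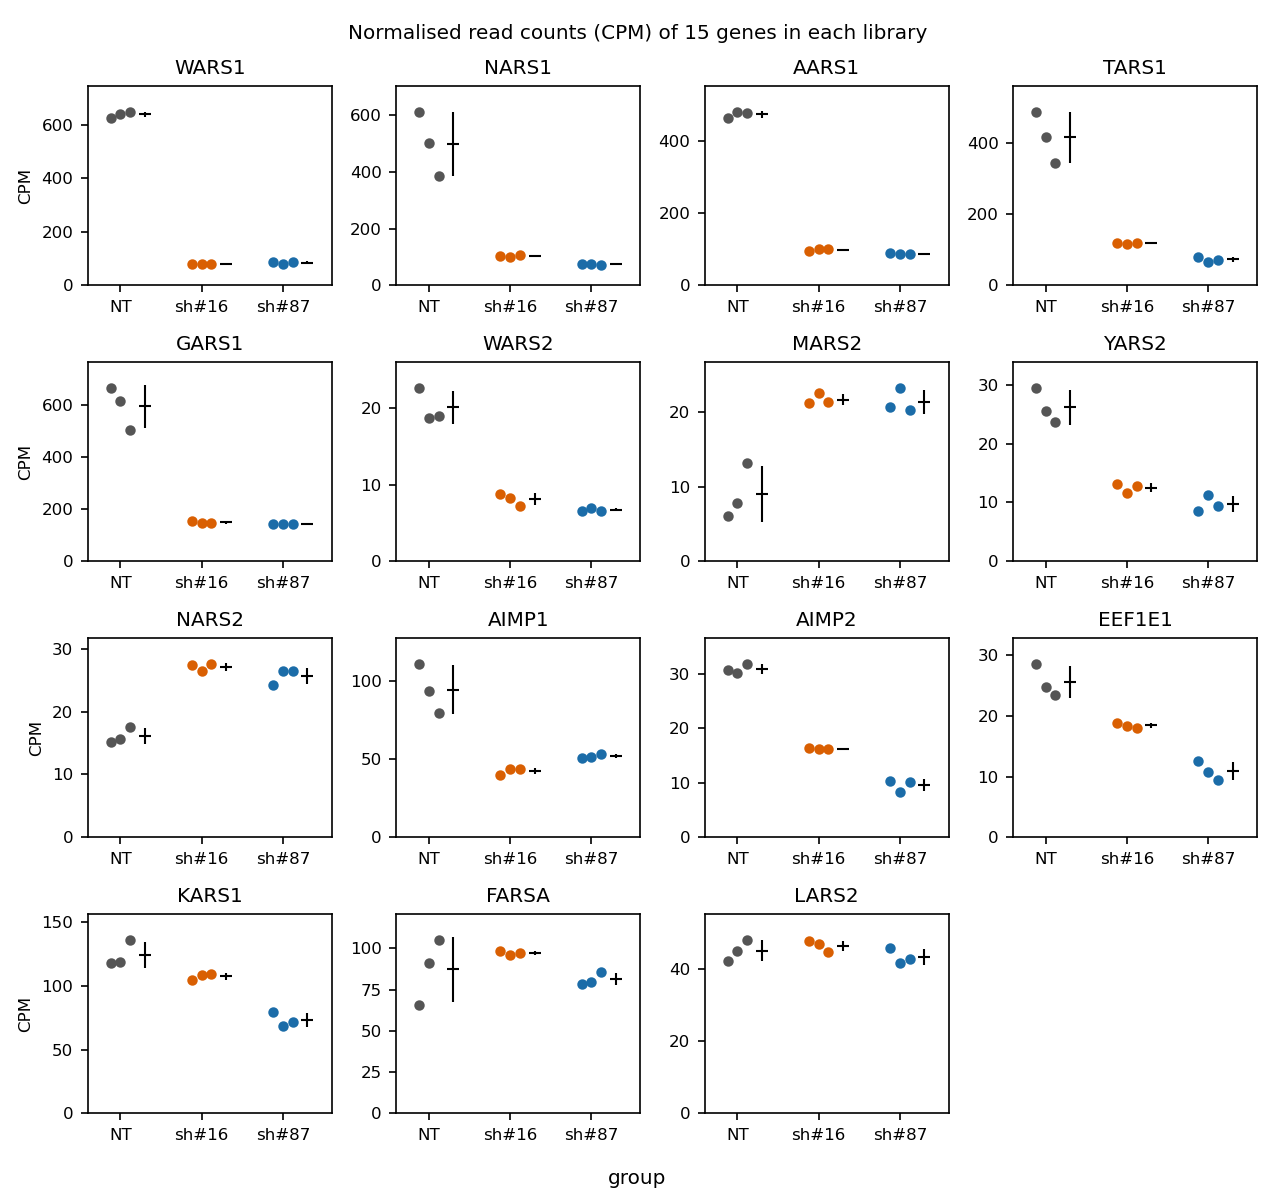
Each panel gives the CPM of a gene in every library (dots) of NT, sh#16 and sh#87 with the mean and SD beside them, on an axis from 0. WARS1 and AARS1 are tight within each group, while NARS1, TARS1 and MARS2 spread widely within NT.

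The scaffold genes were lower with both shRNAs. AIMP1, a scaffold that also gives rise to a secreted cytokine, had 111, 93.6 and 79.4 CPM in NT, 40.2, 43.8 and 43.99 CPM with sh#16, and 50.8, 51.7 and 53.2 CPM with sh#87. AIMP2, the core scaffold, had 30.7, 30.1 and 31.8 CPM in NT, 16.3, 16.2 and 16.3 CPM with sh#16, and 10.4, 8.40 and 10.2 CPM with sh#87. EEF1E1 (also AIMP3) had 28.5, 24.7 and 23.4 CPM in NT, 18.8, 18.4 and 18.0 CPM with sh#16, and 12.5, 10.8 and 9.46 CPM with sh#87. No scaffold overlapped between NT and knockdown, and AIMP2 and EEF1E1 were lowest with sh#87 whereas AIMP1 was lowest with sh#16. The call of EEF1E1 with sh#16 was lost without NT replicate 2 or any 1 of the sh#16 libraries, and under upper-quartile normalization. The 7 synthetases of the multisynthetase complex had medians of -1.03 and -0.76, and the 12 cytosolic ones outside it of -1.64 and -1.55. By catalytic class, the 10 cytosolic class I genes had medians of -1.22 and -1.35 and the 9 class II genes of -0.92 and -1.12.

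For 14 amino acids the list holds a separate gene for each compartment, leaving aside glutamate and proline, which share EPRS1 in the cytosol. The cytosolic count was divided by the mitochondrial count within each library (FARSA and FARSB were summed). The ratio was lower than NT with both shRNAs for 10 amino acids, and for 9 of them the 6 knockdown libraries all lay below the 3 NT libraries. Of all genes taken singly, 32.1% separated below NT and 33.9% above it in this way. The share for ratios of other gene pairs is not given here. The median change of the log2 ratio was -1.48 with sh#16 and -1.19 with sh#87. For alanine the log2 ratio of AARS1 to AARS2 was 4.04 ± 0.27 (SD, n = 3) in NT, 1.40 ± 0.05 with sh#16 and 0.96 ± 0.09 with sh#87. For asparagine it went from 4.93 ± 0.44 to 1.94 ± 0.01 and 1.53 ± 0.11. In both pairs the cytosolic gene was called lower with each shRNA, and NARS2 was called higher with each and AARS2 with sh#87.

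For tyrosine both genes were lower, and the ratio of 3.53 ± 0.22 in NT overlapped with 3.00 ± 0.10 and 3.18 ± 0.21 after knockdown. For tryptophan, although both genes were lower, the ratio went from 4.99 ± 0.18 to 3.29 ± 0.15 and 3.65 ± 0.12 without overlap. Histidine alone had a ratio above NT in all 6 libraries, at 1.40 ± 0.28 in NT, 1.66 ± 0.09 with sh#16 and 1.93 ± 0.08 with sh#87. With sh#16 the separation was narrow, since replicate 3 was at 1.569 and NT replicate 2 at 1.559. NT replicate 3, at 1.074, lowered the NT mean. Phenylalanine, arginine and valine overlapped between NT and knockdown.

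**Figure D4:**
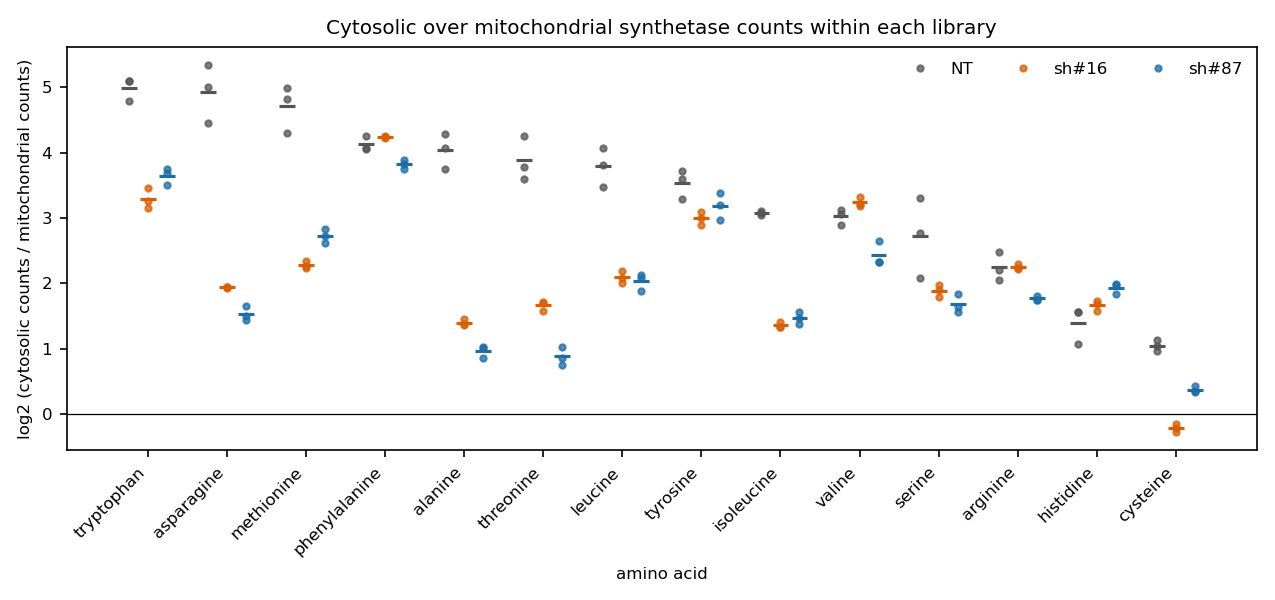
The vertical axis gives the log2 ratio of cytosolic to mitochondrial synthetase counts within a library, by amino acid on the horizontal axis, with dots for the 3 libraries of each group and a bar at their mean. The ratio in the knockdown libraries sits below NT for most amino acids, by about 3 log2 units for alanine and asparagine with sh#87, and above NT for histidine.

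Of 13 other genes listed as partners in tRNA charging and export, 12 were tested, and 9 were called lower and 1 higher with each shRNA, beside 30.2% (sh#16) and 33.6% (sh#87) of all genes called lower and 29.8% and 34.3% called higher. XPOT, the nuclear exporter of tRNA, was at -2.44 and -2.57, QRSL1, a subunit of the mitochondrial glutaminyl-tRNA amidotransferase, at -1.15 and -1.44, and TRNT1, which adds the CCA end of tRNAs, at -1.02 and -1.23. MTFMT, which formylates the mitochondrial initiator methionyl-tRNA made by MARS2, was called higher at 0.70 and 0.45. TUFM and GATC were not called.

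The shRNAs were then compared with each other, a contrast that does not use NT in its difference. With sh#87, 2 of the 38 genes were called higher than with sh#16, where 8.29% of all genes were, and 5 were called lower, where 9.42% of all genes were. None of the 38 reached a log2 difference of 1, where 4.27% of all genes were called, or of 2, where 0.454% were. With an adjusted p threshold of 0.05, 13 were called, beside 33.7% of all genes. The called share was 2 and 3 of 19 among cytosolic and 2 of 3 among scaffold genes. Among mitochondrial genes, with all libraries in the fit, edgeR called 0, limma-voom 0 and DESeq2 1, and 5 had an unadjusted p under 0.05. With sh#16 and sh#87 alone in the edgeR fit, 4 were called higher and 2 lower.

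EEF1E1 was lower with sh#87 by a log2 difference of -0.75 (95% interval -1.01 to -0.49, edgeR adjusted p = 0.0018) and AIMP2 by -0.75 (-0.96 to -0.54, edgeR adjusted p = 0.00063). TARS1 was at -0.70 (-0.98 to -0.42, edgeR adjusted p = 0.0032). KARS1 was at 104, 109 and 109 CPM with sh#16 and at 79.1, 68.5 and 71.8 CPM with sh#87, against 118, 119 and 136 CPM in NT. Its difference was -0.55 (-0.73 to -0.37, edgeR adjusted p = 0.0012). In each of these genes, named for the size of this difference, the sh#87 libraries lay below the sh#16 libraries without overlap. QARS1, SARS1 and LARS1, which were not called, separated in the same way. The share of all genes that did so is not given here. EPRS1 was at -0.43 (-0.59 to -0.28, edgeR adjusted p = 0.0020).

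CARS1 and HARS1 were higher with sh#87, by 0.38 (0.21 to 0.55, edgeR adjusted p = 0.0049) and 0.27 (0.15 to 0.39, edgeR adjusted p = 0.0059). MARS1 had a difference of 0.42 (0.19 to 0.64) that was not called (edgeR adjusted p = 0.012). The mitochondrial gene VARS2 had the largest positive difference of the 38, at 0.73 (0.22 to 1.23), and was not called (edgeR adjusted p = 0.034). NARS1, at -0.48 (-0.80 to -0.16), was not called either (edgeR adjusted p = 0.028). For WARS1 the difference was 0.09 (-0.04 to 0.23), for GARS1 -0.07 (-0.28 to 0.15), for IARS1 -0.05 (-0.18 to 0.09) and for MARS2 -0.02 (-0.54 to 0.49). Each of these intervals includes 0. AARS1 was lower with sh#87 in all libraries, by -0.16 (-0.29 to -0.04), which was not called (edgeR adjusted p = 0.052). The medians of this difference were -0.16 for cytosolic and -0.03 for mitochondrial synthetases, beside -0.02 for all genes.

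These calls depended on the libraries. In 18 other fits, KARS1 and AIMP2 were called in all of them. EEF1E1 lost its call without sh#87 replicate 2. TARS1 and EPRS1 lost theirs without sh#16 replicate 1, 2 or 3 and without sh#87 replicate 2 or 3, and CARS1 and HARS1 without any 1 of the 6 knockdown libraries and without NT replicate 2. The number of called genes was 7 with all libraries, 3 without sh#16 replicate 1, 2 or 3 or sh#87 replicate 3, 2 without sh#87 replicate 2, 11 without NT replicate 3 and 20 when the NT libraries, with their wider spread, were not in the fit. The share of all genes called in these other fits is not given here. Whether the shifts in number are particular to these genes is thus open. MECOM also differed between the shRNAs, at -0.43 (-0.63 to -0.23, edgeR adjusted p = 0.0066), and its part in these differences was not tested.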

How the data were processed

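RNA of HNT34 cells was sequenced on HiSeq2500 from polyA-selected, strand-specific libraries. The values deposited by the authors are unnormalized estimated counts per gene, 1 table for 9 libraries. The methods describe alignment to GRCh38 by STAR (v2.7.1a) and counting by ENSEMBL gene, but the table header refers to salmon. The submitters' notes also name FastQC 1.3. Values were whole and 0 needed rounding.

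All genes were fitted in edgeR 4.0.16 (R 4.3.3) with TMM, filterByExpr and the quasi-likelihood test over 3 groups, without a replicate block. Alternatives used DESeq2 1.42.0, limma 3.58.1, other scalings and filters, a replicate block and libraries left out. On simulated data 169 of 196 (sh#16) and 170 of 196 (sh#87) changed genes were called against NT, among 14795 genes. The simulation gave every group the same spread and every changed gene the same size of change. It therefore does not show how the wider NT spread affects the calls. Members and lists were chosen with earlier results of these data known. Values per library are given for the 5 cytosolic and 4 mitochondrial genes of largest mean change, the scaffolds, the 4 largest called differences between shRNAs and the least changed gene of each compartment. Genes named beyond this rule were chosen after their values were seen. Transcript lengths were those of canonical GENCODE v44 transcripts lifted to GRCh37, used for length only, and were found for all 38. Promoter windows were RefSeq GRCh38.p14, found for 33 of 38 genes. TARS3, PSAT1, GBP1, CXCL10, MPO and proteins were not analysed here. The limit of detection of 3 counts was far below every member. CPM precision covers counting error only. Some genes of the partner and interferon lists are not reported here.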

Additional observations from a re-analysis of the deposited data

Results flagged for a closer look

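Among the 38 genes, 7 were called between the shRNAs by the edgeR test of the difference itself. Over all genes, 8.29% were called higher and 9.42% lower with sh#87. Only the calls of KARS1 and AIMP2 held in all 18 other fits. The log2 difference (sh#87 minus sh#16) was 0.381 for CARS1, 0.268 for HARS1, -0.433 for EPRS1, -0.553 for KARS1, -0.698 for TARS1, -0.748 for AIMP2 and -0.75 for EEF1E1. CARS1 was less far below NT with sh#87 and HARS1 further above it, while the other 5 were further below NT. No cause was tested. Groups of 3 libraries are too small for a test of single outlying libraries.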

How the results depend on the processing

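Against NT, the number of the 38 genes called stayed within 1.5 times of 24 (sh#16) and 28 (sh#87) in every alternative but the fold thresholds, which left 15 and 16 at a log2 fold change of 1 and 3 and 5 at 2. Between the shRNAs the 7 calls became 20 with the 2 groups alone, 13 at an adjusted p of 0.05, 0 at a log2 fold change of 1 or 2, and 2 to 11 with single libraries left out. Shares of all genes called are given for the main fit only. The replicate numbers did not pair the libraries (correlations of same-numbered libraries from -0.137 to 0.0826), and the fit with the replicate block called 24, 27 and 5, losing CARS1 and HARS1 between the shRNAs and IARS2 with sh#87 against NT.

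Upper-quartile scaling moved the median of all genes to 0.14 and 0.15, the cytosolic medians to -0.99 (sh#16) and -1.19 (sh#87) and the mitochondrial median with sh#87 to 0.30, and ended the calls of EEF1E1 with sh#16 and of EARS2 with sh#87. With single libraries left out, the cytosolic medians ran from -1.21 to -1.07 and from -1.35 to -1.26, and the mitochondrial ones from 0.021 to 0.23 and from 0.10 to 0.23. With NT replicate 3 as the only NT library, an alternative added after seeing the data in which the lone library is assumed to vary like the others, the medians were -1.31 and -1.34 (cytosolic) and -0.058 and 0.026 (mitochondrial), with 28 and 30 genes called. The cause of these shifts was not tested. FARSA, near 0 throughout, was 0.019 with sh#87 under upper-quartile scaling and ran from -0.030 to 0.29 (sh#16) and from -0.28 to 0.038 (sh#87) with libraries left out. LARS2 was 0.063 with sh#87 under that scaling and ran from -0.021 to 0.068 with sh#16. The MECOM difference ran from -2.11 to -1.92, with p = 0.0714 by the exact permutation test when an NT library was left out, the smallest that design allows. Of 576 values of the named genes under 18 alternatives, 559 kept direction and side of the threshold. Most of these genes were named for the size of their change in these data. The number therefore does not show how the whole list held. Over the whole list with sh#16 against NT, 5 of 5 higher and 17 of 19 lower calls were kept in all 18 fits. With sh#87 against NT, 4 of 7 higher and 20 of 21 lower calls were kept. Between the shRNAs, 0 of 2 higher and 2 of 5 lower calls were kept. The NT spread limits small differences.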
